A study of Mus musculus with 15 samples.

Results

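The very wide H3K4me1 islands of control αTN4 cells were studied: 434 of the 38007 islands in the control list (1.14%), chosen by the measured width of the island, which had to be at least 15000 bp from its first to its last base. An island is a stretch of 200 bp windows with more ChIP reads than expected, joined by the authors' peak caller across short gaps. The 434 islands added up to 9.26 Mb, which was 6.20% of the length of all islands, and held 286348 ChIP reads and 179370 input reads. Since width is set by the H3K4me1 reads of the control library, the control H3K4me1 values of these islands are given as a description. They were set beside the 1064 next wide islands, of 10000 bp up to below 15000 bp, and beside all islands.

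αTN4 is a line of mouse lens epithelial cells transformed with the SV40 T antigen. Control cells carried a lentiviral control shRNA, and Pax6 knockdown (KD) cells carried a lentiviral shRNA against Pax6 (sh2). Both were pooled populations selected for stable infection with puromycin, for 14 days according to the labels, and both carry the T antigen. In control cells, H3K4me1, H3K4me2, H3K4me3, Pax6 and RNA polymerase II (Pol2) were measured by ChIP-seq, and in Pax6 KD cells the 3 histone marks. H3K4me2 was also measured in newborn lens of CD-1 mice, which the labels give as postnatal day 1. Each of these groups had 1 library, so no comparison here has replicate error, no p-value is given, and the 95% Wilson intervals cover counting error only. Because one label field swaps the Pax6 and Pol2 antibodies, titles decided which library was which. The sources do not say which library SICER took as its control, and reads from it are termed input reads. In these bulk samples, fewer cells with a mark and less of the mark per cell cannot be told apart.

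H3K4me1 is the monomethylated form of lysine 4 of histone H3. It marks enhancers and the flanks of promoters, whereas H3K4me3 marks active promoters and H3K4me2 is found at both. Enhancers that lie close together, as at genes that give a cell its identity, can carry H3K4me1 as one broad domain. Pax6 is a transcription factor with a paired domain and a homeodomain and is needed for lens formation.

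Pax6 peaks were called inside 31 of the very wide islands. For the 6 strongest of these by −log10 q, the sequence of 50 bp on either side of the summit is given (mm9, plus strand), since these are the strongest sites of the knocked-down factor within the widest H3K4me1. Capitals mark a match with 3 mismatches to the Pax6 paired-domain word, on the plus strand in Cdh23 and Bcl2l1 and on the minus strand in Hipk2 and on chromosome 15.
Spp1 flank, chr5:104825471-104825571: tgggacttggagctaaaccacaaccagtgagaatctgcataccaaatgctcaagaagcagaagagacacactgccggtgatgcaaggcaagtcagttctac
Hipk2, chr6:38710400-38710500: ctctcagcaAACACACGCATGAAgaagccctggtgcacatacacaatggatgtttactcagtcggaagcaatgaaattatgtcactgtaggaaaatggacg
Dlgap1, chr17:71088006-71088106: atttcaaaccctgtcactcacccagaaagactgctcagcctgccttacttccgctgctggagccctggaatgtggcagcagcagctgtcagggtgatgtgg
chromosome 15 intergenic, chr15:59657858-59657958: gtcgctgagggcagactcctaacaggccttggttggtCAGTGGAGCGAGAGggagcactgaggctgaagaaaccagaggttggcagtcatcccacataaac
Cdh23, chr10:60045908-60046008: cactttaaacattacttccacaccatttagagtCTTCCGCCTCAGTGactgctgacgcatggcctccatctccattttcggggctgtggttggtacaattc
Bcl2l1, chr2:152618488-152618588: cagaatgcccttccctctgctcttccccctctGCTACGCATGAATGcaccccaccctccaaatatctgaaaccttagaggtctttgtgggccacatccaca
The peak in the Spp1 flank had a −log10 q of 57.98, and the peaks in Hipk2 and Dlgap1 reached 55.11 and 52.5. They ranked 3, 4 and 9 among all 504 Pax6 peaks. The sequences printed for the Spp1 flank and Dlgap1 held no such match.

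Within 100 bp of the summit, 4 of the 33 Pax6 peaks in very wide islands held the Pax6 word with at most 2 mismatches. These 4 words, which lay on the minus strand at the crystallin genes and Wisp2 and on the plus strand elsewhere, are given with 20 bp on either side. Only windows at and beside Pax6 summits were searched.
Lep flank, chr6:28986980-28987033: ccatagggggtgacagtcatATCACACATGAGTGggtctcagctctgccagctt
Crybb1 and Cryba4, chr5:112700177-112700230: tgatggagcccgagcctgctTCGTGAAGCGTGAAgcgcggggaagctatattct
Wisp2, chr2:163626784-163626837: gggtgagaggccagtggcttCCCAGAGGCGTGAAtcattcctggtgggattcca
Slc25a25, chr2:32292621-32292674: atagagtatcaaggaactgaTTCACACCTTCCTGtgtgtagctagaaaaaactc
The share was 12.1% (95% Wilson interval 4.82 to 27.3), beside 17.4% (14.3 to 21.1) of the 471 other Pax6 peaks, and these intervals overlap. Control windows, equally long and shifted by 500 bp on each side, held it in 3.03% of cases at very wide islands and in 2.65% at the other peaks. With 3 mismatches the word was in 63.6% (46.6 to 77.8) of summit windows of very wide islands and in 24.2% (15.5 to 35.8) of their control windows.

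The AP-1 word TGANTCA, bound by Fos and Jun proteins, was found at 10 of the 33 summits (30.3%, 17.4 to 47.3), whereas 4 of the 66 control windows had it (6.06%, 2.38 to 14.6). Among the other Pax6 peaks it was in 21.2% (17.8 to 25.2) of summit windows. Words in 3 of these peaks, the strongest by −log10 q, are given with 20 bp on either side, the word in capitals.
Dlgap1, chr17:71087937-71087983: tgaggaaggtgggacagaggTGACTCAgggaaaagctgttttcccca
Lep flank, chr6:28986938-28986984: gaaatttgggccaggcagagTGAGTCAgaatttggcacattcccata
Tbc1d2, chr4:46630597-46630643: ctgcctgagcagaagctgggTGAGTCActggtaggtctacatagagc
The Ets word CGGAAA was in 0 of the 33 summit windows, which allows a share of up to 10.4%, and in 8.28% (6.12 to 11.1) of the other Pax6 summit windows. A match is a description of the letters and says nothing of binding.

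The widest island covered 90200 bp inside Shb, an SH2-domain adaptor gene (chr4:45451801-45542000), and took up 82.6% of the gene. It held 4345 ChIP reads, 48.2 per kb, where the median of all islands was 20.6 per kb. Inside it lay 19 H3K4me2 peaks, 6 Pol2 peaks, 2 H3K4me3 peaks and no Pax6 peak. In Pax6 KD cells 2 islands covered 98.7% of it, the wider of them measuring 89400 bp and being the widest of the KD list.

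Zmiz1, a transcriptional coregulator, held an island of 74800 bp (chr14:26281201-26356000), and Crim1, a transmembrane protein that binds BMPs, one of 68200 bp (chr17:78611201-78679400). The island of 61000 bp at Wisp1, which encodes a matricellular protein (chr15:66688001-66749000), was the one with the most Pol2 peaks of the 10, namely 17. Vgll4, a cofactor of Tead factors, had an island of 55000 bp that also met Atg7 (chr6:114803801-114858800), and Pmepa1, a target and inhibitor of TGF-β signalling, one of 52200 bp (chr2:173047801-173100000). The Pmepa1 island took up 96.1% of its gene. The island of 48800 bp in Myh9, the heavy chain of non-muscle myosin IIA (chr15:77621401-77670200), had 50.4 ChIP reads per kb, and H3K4me2 peaks lay over 88.2% of its length. An island of 56400 bp (chr2:128197401-128253800) overlapped no protein-coding gene but the long non-coding RNA gene Gm14005.

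**Figure D1:**
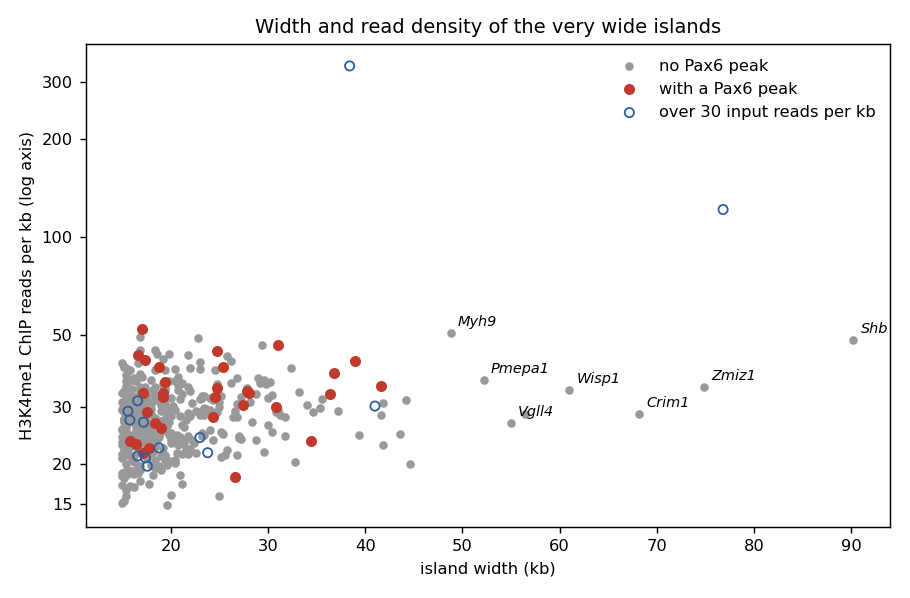
Width (x axis, kb) and H3K4me1 ChIP reads per kb (y axis, log axis) of the 434 very wide islands of control αTN4 cells; each point is 1 island, red points hold a Pax6 peak and open blue points have over 30 input reads per kb. Most islands lie below 30 kb and between 15 and 50 reads per kb, and the islands with a Pax6 peak lie among the others.

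Read density varied between very wide islands. The median was 27.9 ChIP reads per kb, with quartiles of 23.7 and 32.0. Setting aside islands with over 200 input reads per kb, the densest were those near Lep, the leptin gene, with 52.1 per kb (chr6:28978401-28995400), in Myh9, and in Tjap1 and Tmod1, with 49.2 and 48.9 per kb. The least dense were in Fbln2, an extracellular matrix gene, with 14.9 per kb (chr6:91187001-91206600), and in Tcf7l2, the Wnt pathway factor, with 15.1 per kb (chr19:55836201-55851200). The Fbln2 island held no H3K4me2 peak in control or Pax6 KD cells. The threshold of 15000 bp did not fall at a break: 16 islands measured exactly 15000 bp and 19 measured 14800 bp. Their medians were 23.8 and 22.2 ChIP reads per kb, and KD islands covered a median of 86% and 85.1% of them. The islands in Elovl5 (chr9:77766201-77781200), Acpl2 (chr9:96785401-96800400) and Gm20388 (chr8:122806601-122821600) were just inside, and those in Gosr2 and Acpl2 (chr9:96757001-96771800) and one on chromosome 3 (chr3:102166001-102180800) were just outside.

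Input reads differed as well. The median was 14.2 input reads per kb in very wide islands, 13.9 in the next wide and 12.8 in all islands, and 288 very wide islands (66.4%) were above the median of all islands. In 13 very wide islands the input exceeded 30 reads per kb, and in 2 it exceeded 200. These 2 were the island over Sfi1 and Drg1 (chr11:3024801-3101600), 76800 bp wide with 226.9 input reads per kb, and one of 38400 bp over a cluster of 12 predicted genes at the start of the chromosome 9 sequence (chr9:3000001-3038400), with 593.0. On chromosome 9 the ChIP reads reached 336.1 per kb, and the deposited fold over input was 1.21. That island held 26 Pol2 peaks, 18 H3K4me3 peaks and 39 H3K4me2 peaks of newborn lens, and 0 control but 40 Pax6 KD H3K4me2 peaks. For peaks and starts per length, values without these 2 islands are given below where they move.

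By chromosome, chromosome 15 had 44.5 very wide islands per 100 Mb and chromosomes 2 and 17 had 33.6 each, while chromosomes 12, 16 and 18 had 2.47, 2.03 and 2.20 and X had none. Chromosomes with many very wide islands also had more input reads in their islands. The median ranged from 7.92 input reads per kb on chromosome 12 to 15.6 on chromosome 3, and over the 20 chromosomes Spearman's correlation with the number of very wide islands per 100 Mb was 0.77. With the percentage of a chromosome's islands that were very wide it was 0.61. The chromosomes share 1 ChIP and 1 input library. The part of the input reads in the number of very wide islands was not tested.

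**Figure D2:**
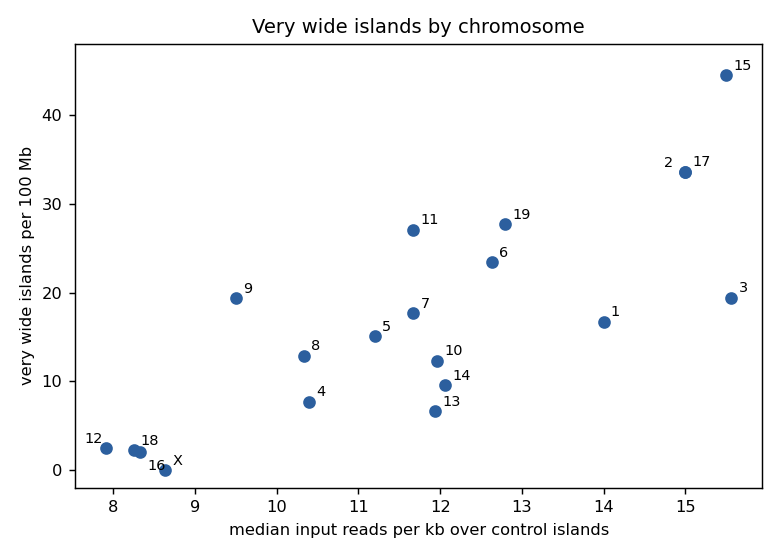
Very wide islands per 100 Mb (y axis) against the median input reads per kb over all control islands (x axis) for chromosomes 1 to 19 and X; each point is 1 chromosome, labelled by its name. Chromosome 15 is at the upper right with 44.5 per 100 Mb, and 12, 16, 18 and X are at the lower left.

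A protein-coding gene body of GENCODE vM1 overlapped 355 very wide islands (81.8%, 77.9 to 85.1), beside 71.8% (69.0 to 74.4) of the next wide and 57.5% of all islands. Wholly inside 1 gene were 265 (61.1%, 56.4 to 65.5), beside 49.6% of all islands. A protein-coding transcription start lay in 108 very wide islands (24.9%, 21.1 to 29.2), beside 18.05% (15.9 to 20.5) of the next wide and 7.40% of all. Per length this order was not kept: there were 0.306 starts per 10 kb in very wide islands, 0.327 in the next wide and 0.342 in all, and 0.2845 in very wide islands without the 2 of over 200 input reads per kb. Exons made up a median of 0.44% of a very wide island, so most of this length was intronic or intergenic.

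In all, 364 protein-coding genes overlapped a very wide island, 1.64% of 22238, and 36 genes overlapped 2 or more. The genes were long, with a median of 63.1 kb against 15.5 kb of all genes. Among genes of at least 50 kb, 4.20% overlapped a very wide island, among those of at least 100 kb 4.99%, and among genes below 50 kb 0.925%. Vav2, a guanine nucleotide exchange factor, had 3 very wide islands that took up 54.7% of the gene. Hipk2, a nuclear kinase, had 3 over 47.6%, and Trio, another exchange factor, 3 over 27.3%. Ahnak and Tns1 also had 3. Csf1, a growth factor gene that the study names, was covered over 90.8% of its length. Of the 10 genes listed from the study, 1 overlapped a very wide island, namely Csf1. Of the 5 of these that measured at least 50 kb, 0 did. Ptgs1, which encodes cyclooxygenase 1, lay wholly under one island. Counts for Gm20388 (7 islands) and Fgfr2 (3 islands) rest on gene models of 4435 kb and 3009 kb that span other genes; the Fgfr2 islands lay at Fam53b (chr7:139903201-139933200), at Ctbp2 (chr7:140274601-140294400) and at the non-coding gene Gm5602 (chr7:137992001-138009000).

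Of 25 genes of the actin cytoskeleton and focal adhesions, 10 overlapped a very wide island, among them Actn1, Actn4, Bcar1, Cald1, Myh9, Pdlim5, Tns1, Tns3 and Vcl. Of the 15 genes of this list that measured at least 50 kb, 9 did, beside 4.20% of all genes of that length. Actn4, which crosslinks actin filaments, had an island of 41800 bp with 30.7 ChIP reads per kb, and Vcl, which encodes the adhesion protein vinculin, one of 25200 bp with 21.0. Both were covered almost whole in Pax6 KD cells, over 99.5% and 100% of their length. Cald1, which encodes caldesmon, had 2 very wide islands, and Tns1, which encodes tensin 1, had 3. The list was put together with results of these data known, and no test was made of it.

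The signalling lists had fewer members with a very wide island. From TGF-β and BMP signalling, 4 of 26 overlapped one, namely the ligand Tgfb2, the effector Smad3 with 2 islands, and the inhibitors Smad7 and Skil. From the Hippo pathway 2 of 15 did, Tead1 and its cofactor Vgll4. From FGF signalling 2 of 14 did, the inhibitor Spred2 and Fgfr2 by its long gene model. Among matrix and integrin genes 3 of 21 did: Col4a2, a chain of basement membrane collagen, with 2 islands, Col5a1, and Cd44, the hyaluronan receptor. Of the 10 AP-1 genes and the 14 Ets genes, 0 did. At the share of 1.64% over all genes, a count of 0 in lists of these sizes is near the background. Among genes of at least 50 kb, 2 of 15 TGF-β and BMP, 2 of 7 Hippo and 2 of 7 FGF genes overlapped a very wide island. So did 3 of 13 matrix and integrin genes and 0 of 9 Ets genes, beside 4.20% of all genes of that length. No test was made of these lists.

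Of 19 lens transcription factors 0 overlapped a very wide island, and 12 overlapped a narrower one. This count too is near the background of 1.64%, and only 3 of these genes measured at least 50 kb. The widest was 13200 bp, in Prox1, and Pax6 itself had an island of 3600 bp. None of the 7 lens epithelium markers and none of the 8 lens fibre markers did. The median gene length was 13.1 kb for the epithelium and 7.74 kb for the fibre markers. The crystallin genes Crybb1 and Cryba4, not on the lists, were both met by one island of 24800 bp (chr5:112680201-112705000), which covered 100% of Crybb1 and 22.2% of Cryba4. It had 34.2 ChIP reads per kb, 6 Pol2 peaks and 1 Pax6 peak. Of fibroblast markers 1 of 6 overlapped a very wide island, Twist2, with 21200 bp. None of the 4 leukocyte and 4 neuron markers did.

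Non-coding genes were also covered. The long non-coding RNA gene Pvt1, next to Myc, had 2 very wide islands, the wider of 41800 bp (chr15:61941801-61983600) and without a Pol2 peak. Neat1, the scaffold RNA of paraspeckles (chr19:5824708-5845478), lay partly under an island of 35400 bp (chr19:5804401-5839800) with 15 Pol2 peaks. The microRNA genes Mir29a and Mir29b-1 lay in an island of 29400 bp (chr6:31005201-31034600) with 46.6 ChIP reads per kb.

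Over the array of 5S ribosomal RNA genes on chromosome 8, one very wide island of 44600 bp (chr8:126062001-126106600) held 26 annotated genes, and one of 32800 bp (chr8:126115801-126148600) held 19. The 5S RNA is a part of the large ribosomal subunit and is made by RNA polymerase III. The 2 islands held 24 and 21 control H3K4me2 peaks, the largest number of any very wide island and a number shared with the Gm14005 island, over 83.2% and 81.1% of their length. Newborn lens had 28 and 21 H3K4me2 peaks there. No H3K4me3, Pol2 or Pax6 peak was called in either. Pax6 KD H3K4me1 islands covered 58.3% and 35.4% of them, less than the median of 87.7% over very wide islands, with 13.8 and 14.7 input reads per kb.

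H3K4me2 peaks lay in 427 of the 434 very wide islands (98.4%, 96.7 to 99.2), beside 97.5% (96.3 to 98.3) of the next wide and 77.6% of all islands. The number of peaks ran from 0 to 24, with a median of 4. Per length, peaks were not more numerous: there were 2.28 per 10 kb, beside 2.35 in the next wide and 2.88 in all islands. Here and in the other counts of peaks per length, a peak that met only an edge counted whole. Such counting raises the values more in narrower islands. The peaks had a median width of 1263 bp, beside 1149 bp in the next wide islands and 865 bp over all H3K4me2 peaks. They covered a median of 36.3% of a very wide island, against 32.7% of the next wide and 29.3% of all. The 7 islands without one were in Bckdhb, Fbln2, Nuak1, Tead1 and Tnpo3, near Tpbg and at the start of chromosome 9. In Pax6 KD cells 427 very wide islands also held an H3K4me2 peak (98.4%), beside 72.2% of all islands. Newborn lens H3K4me2 peaks lay in 326 very wide islands (75.1%, 70.8 to 79.0), beside 59.5% (56.5 to 62.4) of the next wide and 35.3% of all. Per length this order was not kept, with 1.18 lens peaks per 10 kb in very wide islands, 1.08 in the next wide and 1.27 in all. Without the 2 islands of over 200 input reads per kb, very wide islands had 1.15. Lens peaks covered a median of 4.81% of a very wide island. The mean cover was 9.87%, beside 9.73% of the next wide and 10.7% of all.

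Pol2 peaks lay in 233 very wide islands (53.7%, 49.0 to 58.3), beside 35.8% (33.0 to 38.7) of the next wide and 14.9% of all. Pol2 peaks were also denser per length, at 0.622 per 10 kb in very wide islands, 0.543 in the next wide and 0.484 in all, and 0.599 without the 2 islands of over 200 input reads per kb. Of the 326 very wide islands without a coding start, 157 held a Pol2 peak (48.2%, 42.8 to 53.6), beside 29.5% (26.5 to 32.6) of such next wide and 12.5% of all such islands. Of the 576 Pol2 peaks in very wide islands, 427 (74.1%, 70.4 to 77.5) lay farther than 2 kb from a coding start, beside 64.0% (60.3 to 67.5) of those in the next wide islands. The share was 47.1% (45.9 to 48.2) of Pol2 peaks in any island and 27.5% of all Pol2 peaks. After the islands on chromosome 9 and at Wisp1 and Neat1, Wisp2, another matricellular gene, had the most Pol2 peaks, with 9. Islands with Pol2 had a median of 29.4 H3K4me1 ChIP reads per kb, and those without had 25.1.

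H3K4me3 peaks lay in 129 very wide islands (29.7%, 25.6 to 34.2), beside 19.7% (17.5 to 22.2) of the next wide and 13.9% of all. In the islands with a coding start the share was 55.6% (46.2 to 64.6), and in those without one 21.2% (17.1 to 25.9). In Pax6 KD cells 127 held an H3K4me3 peak (29.3%, 25.2 to 33.7), beside 13.2% of all islands. Per length, with peaks at an edge counted whole, H3K4me3 peaks were sparser than in all islands, at 0.205 against 0.377 per 10 kb. Without the 2 islands of over 200 input reads per kb the value was 0.186.

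**Figure D3:**
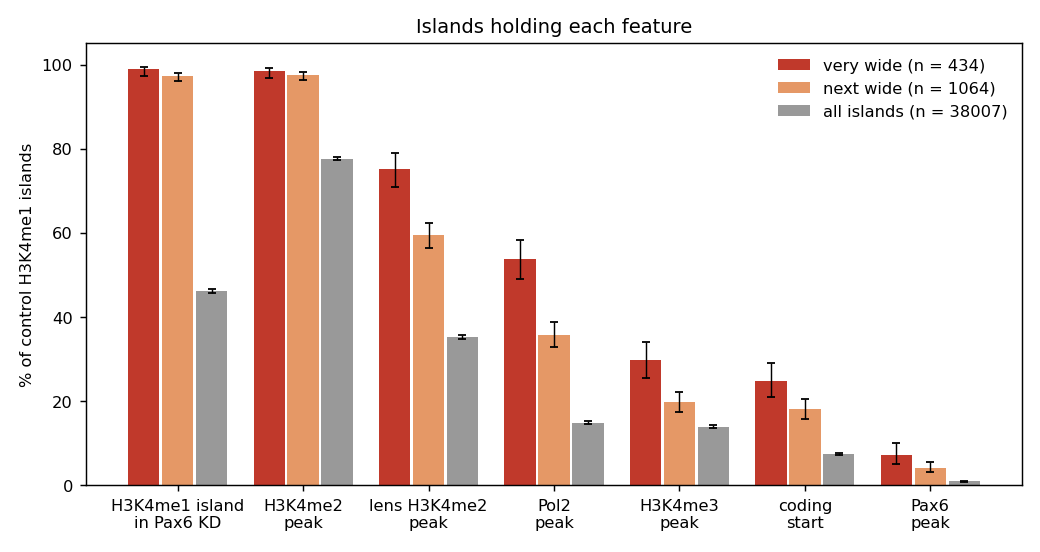
Share of control H3K4me1 islands (y axis, %) that hold each feature on the x axis, for 434 very wide, 1064 next wide and all 38007 islands; bars are shares and error bars are 95% Wilson intervals. The share with Pol2 is 53.7% in very wide islands against 35.8% and 14.9%, while H3K4me2 is at 98.4% and 97.5% in the 2 wide classes.

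Pax6 peaks lay in 31 very wide islands (7.14%, 5.08 to 9.96), beside 4.14% (3.10 to 5.51) of the next wide and 0.995% of all islands. Per length, very wide and next wide islands were alike, with 0.0357 and 0.0359 Pax6 peaks per 10 kb, and all islands had 0.0257. The 33 peaks were set beside the 350 Pax6 peaks in other H3K4me1 islands and beside all 504, of which 383 lay in any island. Within 2 kb of a coding start were 2 of the 33 (6.06%, 1.68 to 19.6), beside 6.86% in other islands and 10.5% of all. An exon was touched by 1 (3.03%), beside 3.14% and 5.36%, and 20 were in a protein-coding gene (60.6%, 43.7 to 75.3), beside 46.3% (41.1 to 51.5) and 48%. H3K4me2 overlapped 29 of the 33 (87.9%, 72.7 to 95.2), beside 85.1% (81.0 to 88.5) in other islands and 76.2% of all Pax6 peaks. Pol2 overlapped 11 (33.3%, 19.8 to 50.4), beside 14.6% (11.3 to 18.7) and 19.4%. KD H3K4me2 overlapped 26 (78.8%, 62.3 to 89.3), beside 74.6% (69.8 to 78.9) and 66.5%, and lens H3K4me2 overlapped 14 (42.4%, 27.2 to 59.2), beside 33.4% (28.7 to 38.5) and 38.3%.

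The strongest was in an island of 15800 bp that lay 24537 bp from Spp1, the osteopontin gene (chr5:104823801-104839600). Its summit was 1720 bp from the start of the island, and a second Pax6 peak, with a −log10 q of 14.69, was 13358 bp from it. The island also held 4 Pol2 peaks and no coding gene. Hipk2 had a Pax6 peak in each of 2 very wide islands, with −log10 q of 55.11 and 4.86. The peak in Dlgap1 was in an island of 17200 bp (chr17:71083401-71100600). One on chromosome 15 lay in an island of 19400 bp that was 155185 bp from the nearest coding gene (chr15:59651401-59670800). The next were in Cdh23, a cadherin gene, in Bcl2l1, which encodes the survival protein Bcl-xL, near Lep, in Fam129a, in Gsn, which encodes the actin-severing protein gelsolin, and in the island of Crybb1 and Cryba4. Impdh1 (chr6:29142801-29161600) was the other island with 2 Pax6 peaks.

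Pax6 KD islands overlapped 429 of the 434 very wide islands (98.8%, 97.3 to 99.5), beside 97.2% (96.0 to 98.0) of the next wide and 46.2% of all islands. The KD list is shorter as a whole, with 18417 islands over 97.2 Mb against 149.2 Mb in control. Of the summed length of the very wide islands 83.4% lay under KD islands, beside 74.99% of the next wide and 49.1% of all islands. For all islands this share also differed by chromosome, from 16.3% on X to 60.5% on chromosome 15. These are the chromosomes with the fewest and the most very wide islands per length. The part of the chromosomes in the comparison was not tested. The cover of single very wide islands had a median of 87.7% and quartiles of 75.6% and 95.4%. It reached at least 50% in 410 islands (94.5%, 91.9 to 96.3), beside 42.6% of all islands, and at least 90% in 187 (43.1%, 38.5 to 47.8), beside 22.5%. The cover was complete in 51 very wide islands (11.8%, 9.05 to 15.1), beside 15.3% of all islands.

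**Figure D4:**
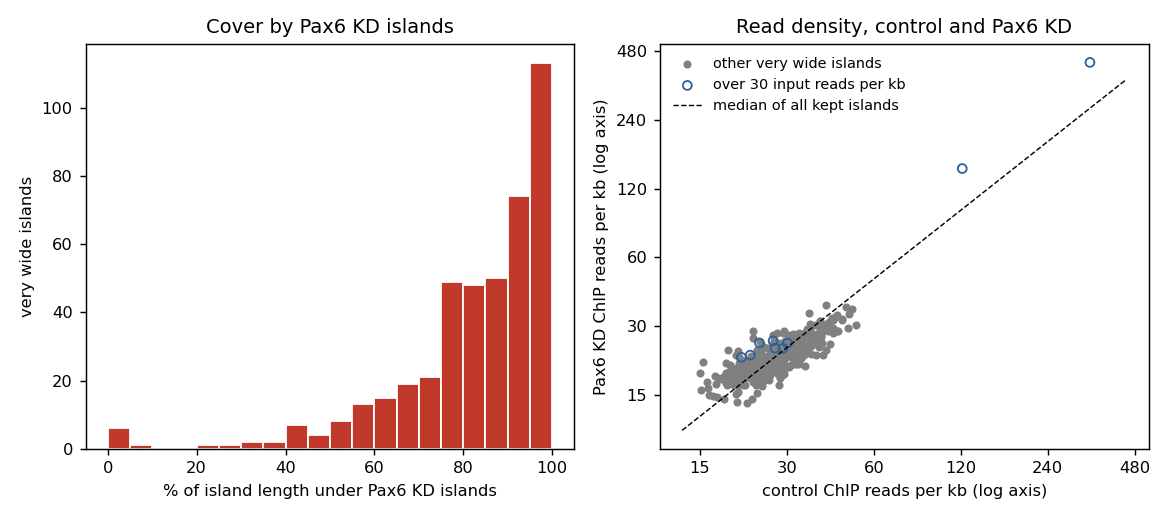
Left, number of very wide islands (y axis) by the share of their length under Pax6 KD H3K4me1 islands (x axis, %, in steps of 5). Right, ChIP reads per kb in control (x axis) and in the overlapping Pax6 KD islands (y axis), both on log axes, 1 point per island, with the median ratio of all kept islands as a dashed line; most islands lie above 75% cover, and the 9 islands of over 30 input reads per kb (open blue) lie above the line.

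In Pax6 KD cells 247 very wide islands overlapped 2 or more KD islands, where an overlap of 1 bp was enough. At Shb, for example, 1 KD island of 89400 bp spanned nearly all of the control island and the other met only its edge. One KD island overlapped 182 very wide islands, 2 overlapped 178, 3 overlapped 53, 4 overlapped 14 and 5 overlapped 2. Per length, KD islands numbered 0.82 per 10 kb in very wide islands, 1.11 in the next wide and 1.26 in all. A KD island that met only an edge counted whole, which raises the value more in narrower islands. This order is therefore no measure of how far islands were broken up. The 2 very wide islands with 5 KD islands were the island in Col4a2 (chr8:11360801-11400200), covered over 84.8%, and the first 5S island. Conversely, 5 KD islands each joined 2 very wide control islands. At Bcl2l1 a KD island of 49400 bp (chr2:152605201-152654600) ran across both control islands and the 800 bp between them. At Bcar3, an adaptor of Cas proteins, a KD island of 63000 bp (chr3:122157801-122220800) closed a gap of 13600 bp, and at Nt5e and Snx14 one of 56200 bp (chr9:88222601-88278800) closed 13000 bp. The others were at Ahnak and Tbc1d2. In all, 183 very wide islands overlapped a KD island of at least 15000 bp. Of the 358 KD islands of that width, 186 overlapped a very wide control island, 170 overlapped only narrower control islands, and 2 overlapped none.

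The 5 very wide islands without a KD island were in Bckdhb (chr9:83910201-83934000), Elovl4 (chr9:83686401-83703000), Mkln1 (chr6:31349801-31367600) and Tcte2 (chr17:13739601-13756200), and 154739 bp from Tpbg (chr9:85895401-85913000). All had more input than the median very wide island, from 21.4 reads per kb at Mkln1 to 39.6 at Tcte2, and 17.4 to 31.3 ChIP reads per kb. A second island at Bckdhb (chr9:83805801-83824600) was covered over 3.19%. Between 83 and 86 Mb of chromosome 9, islands had 31.6 input reads per kb in control and 27.3 in Pax6 KD, against 22.5 and 18.6 between 86 and 95 Mb. Both stretches lay above the median of single islands on chromosome 9, which was 9.5 in control and 15.9 in Pax6 KD. Without islands of over 30 input reads per kb, 420 of 421 very wide islands (99.8%) had a KD island. Among islands with at most 20 input reads per kb, the least covered was that in Litaf (chr16:11005801-11026200), at 9.80%, with 8.68 input reads per kb and 7 H3K4me2 peaks in both conditions. The islands in Zfand3, Myo10 and Myo1e followed, at 23.7%, 27.2% and 31.1%.

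**Figure D5:**
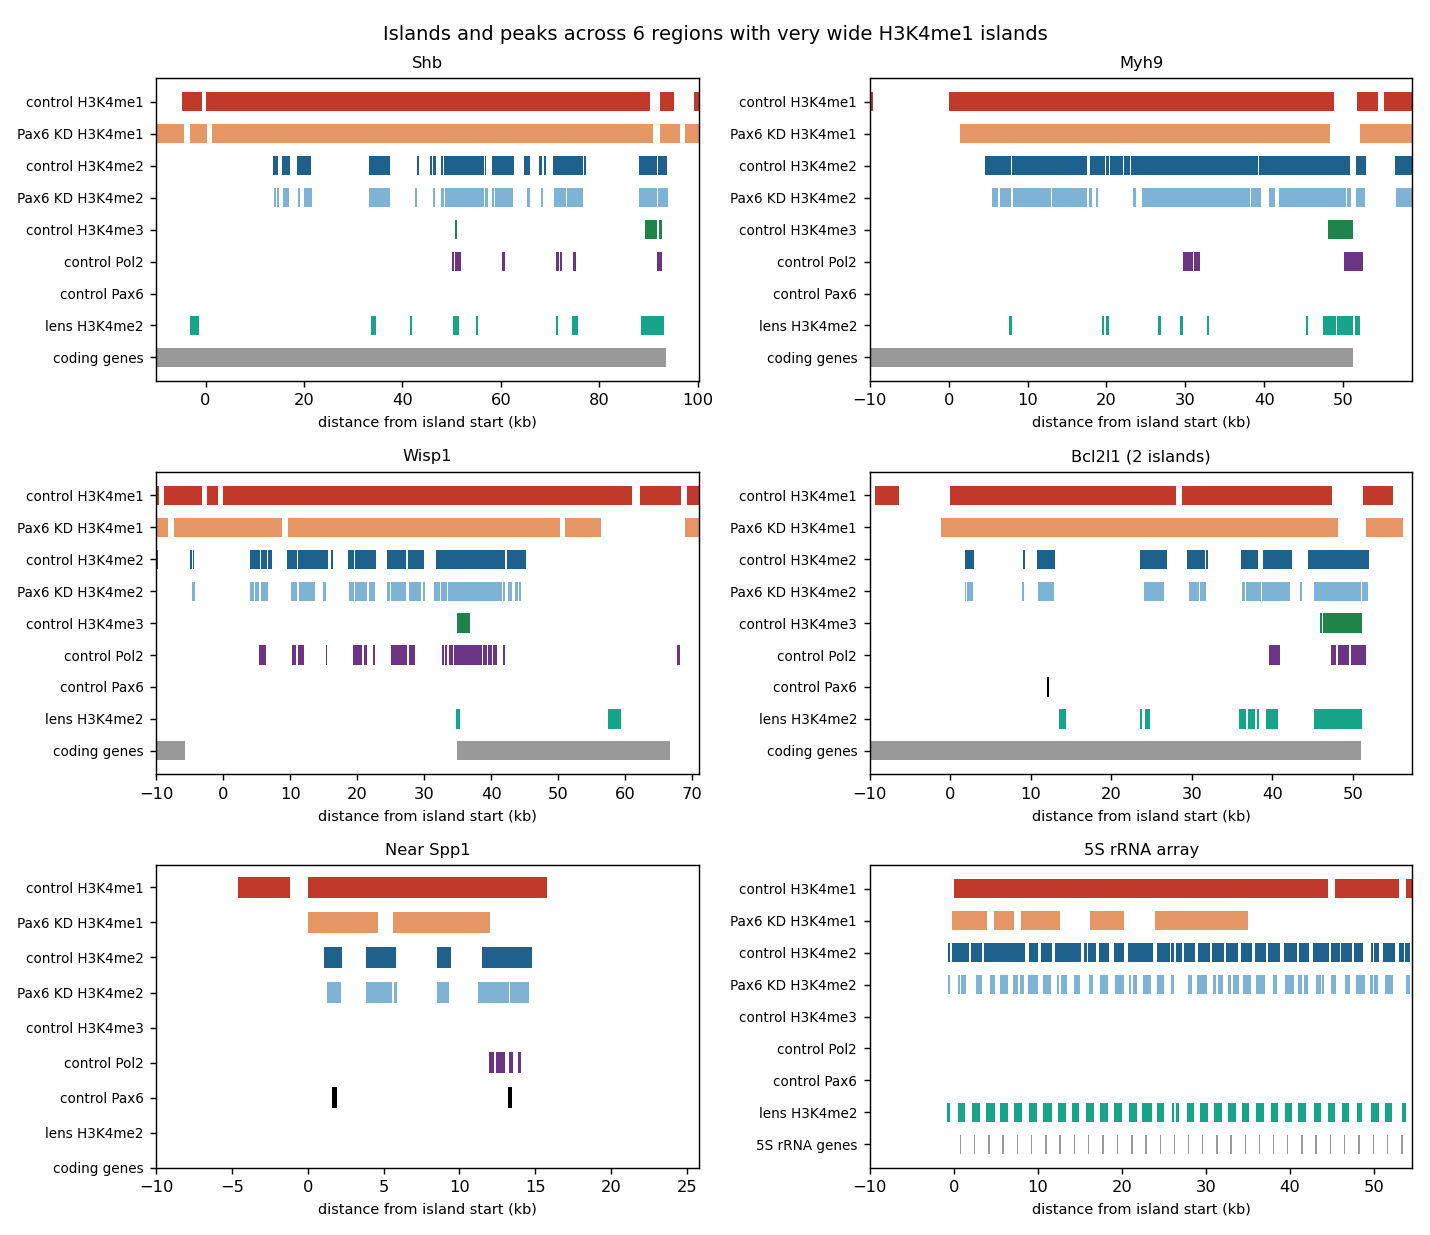
Islands and peaks in 6 regions with very wide islands, drawn to scale; the x axis is the distance from the start of the island (kb, 10 kb shown on either side), and each row is 1 list of regions or the annotated genes. At Shb 1 KD island spans nearly all of the 90.2 kb; at Bcl2l1 1 KD island spans both control islands; over the 5S array the H3K4me2 peaks of αTN4 and lens follow the genes and the KD islands are in pieces.

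For the 429 very wide islands with a KD island, the ChIP reads per kb of all overlapping KD islands were compared with those of the control island, and the log2 ratio was set to 0 at the median of all kept islands. The median was −0.02 (quartiles −0.15 and 0.11), and 235 islands (54.8%, 50.1 to 59.4) were below 0, beside 48.2% of the next wide. The control reads in this ratio also set the width that chose the islands, so the choice itself may favour values below 0. Over all kept islands the share is 50% because of the scaling, so it is no independent background. Without this scaling the median was −0.33, and 400 islands (93.2%, 90.5 to 95.3) were below 0, beside 82.1% of all kept islands, so the size of this change and the count rest on the scaling. The KD density is measured over KD islands, not over the same bases, so a KD island that covers only the densest stretch gives a high ratio. The ratio was lowest for an island 18794 bp from Gm10982 (chr4:45145601-45160800), at −0.51, with 39.9 ChIP reads per kb in control and 22.5 in Pax6 KD. The islands at Ahnak (chr19:9144001-9159000), in Tspan5 (chr3:138422201-138437600) and near Lep followed, at −0.49, −0.48 and −0.46. At Tgfbi, a TGF-β induced matrix gene, it was −0.45 (chr13:56697001-56717000), with 28.1 and 16.6 reads per kb. The highest was 0.76 at Zfand3, of which 23.7% was covered.

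The 31 very wide islands with a Pax6 peak had a median log2 ratio of −0.10 (quartiles −0.21 and 0.00). Of the 403 without one, the 398 with a KD island had −0.01 (−0.14 and 0.12). The quartiles overlap. The islands with Pax6 were also wider, with medians of 24400 and 18400 bp, and denser in control, with 33.0 and 27.8 ChIP reads per kb. All 31 had a KD island, which covered a median of 90.6% of their length, from 51.6% to 100%, beside 87.3% without Pax6. Of the 33 Pax6 peaks themselves, 29 lay under a KD H3K4me1 island (87.9%, 72.7 to 95.2), beside 68.6% (63.5 to 73.2) of those in other control islands and 56.0% of all Pax6 peaks. Those outside one were in Fam129a, at Wisp2 and Ggnbp1, and the weaker of the 2 near Spp1. For islands with and without Pol2 the median log2 ratios were −0.05 and 0.02.

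Summed over the very wide islands, H3K4me2 was called in more and shorter pieces in Pax6 KD cells. Island by island, 187 of the 427 very wide islands with control H3K4me2 had more KD peaks, 110 had fewer and 130 equally many. Over all 29509 such islands, 4622 had more, 5847 fewer and 19040 equally many. There were 2105 control and 2324 KD overlaps of a peak with a very wide island, or 2092 and 2270 without the 2 islands of over 200 input reads per kb, and the median width was 1263 bp in control and 829.5 bp in Pax6 KD. Of the 427 very wide islands with control H3K4me2, 406 (95.1%, 92.6 to 96.8) had less of their length under KD peaks, beside 88.4% (86.3 to 90.2) of the next wide and 78.7% of all such islands. The median difference was 6.49 percentage points of the length, beside 5.46 in the next wide and 5.64 over all. Between the classes, the shares differed more than these medians did. Only islands with a control peak were counted, a choice that favours less cover in Pax6 KD. By their names the control peaks were called from both replicates and the KD names do not say so, so the depth behind the lists may differ, and its part in these differences was not tested. The KD list of H3K4me2 as a whole also has narrower peaks, with a median of 727 against 865 bp. At Myh9 the covered share was 88.2% in control and 71.7% in Pax6 KD, at Pmepa1 57.5% and 40.3%, and at Tgfbi 50.5% and 29.1%. Of the control H3K4me2 peaks in very wide islands, 79.7% (77.9 to 81.4) overlapped a KD peak, beside 82.5% of all H3K4me2 peaks. For H3K4me3 the share was 80.4% (74.2 to 85.5), or 88.8% (83.1 to 92.7) without the 2 islands of over 200 input reads per kb, beside 89.9% of all H3K4me3 peaks.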

How the data were processed

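Lists of regions deposited by the authors were used for control and Pax6 KD αTN4 cells and newborn lens, 1 library each. Per the study's methods, reads were placed on mm9 by the authors using Bowtie, who then called Pax6, Pol2, H3K4me2 and H3K4me3 peaks with MACS2 and H3K4me1 islands with SICER at default settings, and left out blacklisted regions. The control H3K4me2 peaks are named as coming from both replicates and the Pax6 KD and lens peaks from a replicate, and no other source says how replicates were merged. The island lists hold the count of ChIP reads and of input reads in each island that the authors deposited, with a p-value, the fold over scaled input and an FDR. The peak lists hold the deposited fold enrichment, −log10 p and −log10 q and a score. How deeply the MACS2 libraries were sequenced is unknown. The reads in islands (3289553 in control, 1849269 in Pax6 KD) are not library depths. RNA-seq was not analysed here.

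Islands were written from 1, with widths in steps of 200 bp, and overlap meant at least 1 bp. Genes and starts were those of GENCODE vM1 on mm9, protein coding unless stated; strand was not used. Pax6 words were searched 100 bp either side of summits on both strands, with mismatches counted in letters other than N. The islands named were the 10 widest, those with the most, fewest or strongest values of each measure, the 3 on either side of the threshold, and genes of the lists. Islands singled out by Pol2 peaks, read density change, joined KD islands, non-coding genes outside the list or position in crystallin genes were chosen after their values were seen. The members and lists were chosen with earlier results of these data known. Overlap, cover and word functions were tested on simulated data. Python 3.11.15, pandas 2.3.3, NumPy 2.4.6, SciPy 1.17.1 and matplotlib 3.10.9 were used. Alternatives changed width, thresholds, overlap, scaling and annotation. Some items are not reported here.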

Additional observations from a re-analysis of the deposited data

How the results depend on the processing

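Of 33 alternative values, 24 stayed within the interval of the reported value and 9 moved out of it. The mean share of length under KD islands was 82.25%. Its interval of 78.1 to 85.4 was made as if for a count and is not an interval of a mean. The alternatives to this mean are among the 24. The share of very wide islands with a KD island was 94.5% when at least 50% of the length had to be covered, and 99.8% without islands of over 30 input reads per kb, a choice made after the data were seen, as were the others that leave islands out. The median log2 change in ChIP reads per kb was −0.33 without scaling, −0.45 with the library-size factor in the fold column and −0.044 scaled by input reads per kb, against −0.02 as reported; over all kept islands the same scalings gave −0.32, −0.43 and −0.03. Lens H3K4me2 peaks with a −log10 q of at least 5 were in 68.7% of very wide islands. Counting all transcripts, 39.2% covered a transcription start, and counting all genes, 85.7% overlapped a gene body. The Pax6 word with 3 mismatches was in 63.6% of summit windows.

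No paired analysis was possible because each group has 1 library and no test was made. With 1 library a condition, the spread between cultures is unknown, and it cannot be told apart from the difference between control and Pax6 KD cells. Whether island width depends on depth or input was not tested.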
